A study of Mus musculus with 37 samples.

Results

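The cytosolic ribosomal protein genes encode the proteins of the large (60S) and small (40S) subunits of the ribosome, and their mRNAs are among the most abundant in a growing mammalian cell. They were taken as the table rows whose mouse gene ID belongs to a protein-coding gene with an Rpl, Rps, Rplp or Rpsa symbol in its standard form, with pseudogenes, mitochondrial ribosomal proteins and paralogs such as Rpl39l left out. This rule used no measured value and gave 77 genes of 51123 rows, 46 of the large and 31 of the small subunit. All 77 passed the filter on low values in both sets of libraries.

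As background, each ribosome holds 1 copy of nearly every ribosomal protein, so a cell makes these proteins in matched amounts. Most of their mRNAs begin with a 5′ terminal oligopyrimidine (TOP) tract, a C followed by further C and U bases, through which mTOR and LARP1 control their translation and stability. Myc raises ribosome production as a whole, and free Rpl5 and Rpl11, held with 5S rRNA in the 5S RNP, bind Mdm2 and so spare p53 from degradation, which ties the ribosome to the p53 pathway that was deleted in the mice studied here.

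RNA was sequenced from 37 cultures of mouse bone marrow (BM) and osteosarcoma cells, whose rows were given as TPM (a level corrected for transcript length and scaled to the same sum in each library). DKO mice lack Wwox and Trp53 (p53) and SKO mice lack Trp53 alone, through Osterix1-Cre (Osx1-Cre), which acts in osteoblast progenitors and also turns on a Rosa26-LSL-tdTomato reporter. The control mice are given as Control-WT. The groups called yBM, BMT and tumor are marrow of young mice without tumors, marrow of tumor-bearing mice and the tumors themselves. Set 1 holds 16 libraries, of control BM (n = 4), DKO yBM (n = 6, of which 3 at 1.5 and 3 at 4 months), DKO BMT (n = 3) and DKO tumor (n = 3). The other 21 libraries form set 2, with 3 each of control BM and of the SKO and DKO forms of yBM, BMT and tumor. All cells were grown in serum and RNA was taken after 3 passages, when tdTomato-positive cells dominated, so the values describe cultured cells and not the tissue. For the groups other than set 1 yBM no age is given here, and the numbers of control, tumor-free and tumor-bearing mice in the methods equal the numbers of set 1 libraries, without a link from library to mouse. A figure legend of the paper, however, calls the BMT cells paired with the tumor cells. The BMT and tumor libraries of set 1 may thus come from the same mice, and the fit treated them as separate. For set 2 nothing says how many animals gave the libraries of each group, so a p-value there covers no more than the spread from library to library, which may be technical.

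TPM keeps no sequencing depth, so the counting error of a value is unknown. Transcripts of the 37 mitochondrial genes made up 5.32% to 32.5% of a library, the highest share in the library control BM 1 of set 2, which lowers every other TPM there. The mean log2(TPM + 1) of 22 leukocyte markers was 8.21 to 8.49 in the 3 control libraries of set 2 and 0.39 to 0.97 in 16 of its 18 knockout libraries, with 5.08 in SKO BMT 2 and 4.29 in DKO BMT 2. In set 1 it was 5.82 to 8.20 in control BM, 4.09 to 7.70 in yBM, 6.81 to 7.31 in BMT and 5.90, 0.48 and 0.67 in the tumors. Of 14 mesenchymal and osteoblast markers, 13 or 14 averaged at least 1 TPM in every group, the exception being Lum. The controls of set 2 and the knockout cultures thus differ in leukocyte content as well as in genotype, and in these bulk libraries a change in the kinds of cells and a change per cell cannot be told apart. Trp53 mRNA was at 1.35 to 36.1% of the control mean in the knockout libraries, except for 63.3% and 72.1% in those labelled DKO BMT 2 and 3 of set 1. Wwox mRNA went against the label in 12 libraries. It was above 50% of the control mean in 10 labelled DKO (yBM 2 to 6, BMT 1 and tumor 1 of set 1 and all 3 tumors of set 2) and at 2.84% and 2.39% in those labelled SKO BMT 2 and 3, so DKO and SKO below name the labels and not a measured loss of Wwox.

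Many ribosomal protein genes have processed copies elsewhere in the genome whose transcripts are nearly the same letters, and reads from such stretches cannot be assigned to a single row with certainty. A copy was counted here where at least 50% of its 31-base words occur in the coding transcripts of a member (GENCODE M21 transcripts). By this measure 299 rows of the table were near copies, 64 of them with a mean of at least 1 TPM, and 68 of the 77 members had at least 1. The stretches below show 3 members beside the copy with the highest level, with a base that differs in capitals and the positions counted from 1 at the first coding base. They are shown because the level of the member's own row turns on which of the pair the reads were given to.
Rpl12 and Gm10275, bases 32 to 61: aagtcgtgtacctgaggtgcaccggaggcg
Rps7, bases 12 to 41: gagcgccaagatcgTgaagcccaatggcga
Gm6472, bases 12 to 41: gagcgccaagatcgGgaagcccaatggcga
Rps18, bases 172 to 201: gaactcacggaggaTgaggtggagcgagtg
Gm10260, bases 172 to 201: gaactcacggaggaCgaggtggagcgagtg
Over the whole coding sequence, Gm10275, a transcribed pseudogene on chromosome 10, matched Rpl12 in 498 of 498 bases, and Gm6472, another on chromosome X, matched Rps7 in 582 of 585. Gm10260 on chromosome 13 matched Rps18 in 455 of 459 bases, with the differences T186C, A337C, G371A and G431A. No base of the coding sequence separates Rpl12 from Gm10275, so only reads in untranslated parts could do so.

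The start sites of 57 of the 77 members were matched in RefSeq (GRCm38.p6), and the TOP tract was searched as a C at the annotated start followed by at least 4 C or T bases. The 30 bases below, 10 before the annotated start and 20 from it, show 5 members with a tract, in capitals, and 3 without one at that position. They are shown because this tract is the element named above for most of these mRNAs, and the rule did not use it.
Rps6, chr4:86857348-86857377, minus strand: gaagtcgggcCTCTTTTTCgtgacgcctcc
Rps18, chr17:33955646-33955675, minus strand: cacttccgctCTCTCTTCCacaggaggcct
Rpl38, chr11:114668570-114668599, plus strand: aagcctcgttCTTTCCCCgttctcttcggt
Rpl14, chr9:120571507-120571536, plus strand: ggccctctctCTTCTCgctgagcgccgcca
Rplp2, chr7:141447641-141447670, plus strand: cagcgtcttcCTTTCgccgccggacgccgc
Rpsa, chr9:120127756-120127785, plus strand: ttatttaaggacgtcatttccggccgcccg
Rps2, chr17:24720053-24720082, plus strand: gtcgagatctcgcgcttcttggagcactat
Rplp0, chr5:115559457-115559486, plus strand: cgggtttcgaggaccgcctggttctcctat
A tract at the annotated start was found in 13 of the 57 matched members, which is 22.8%, against 813 of 27025 genes with a RefSeq window, which is 3.01%. Within 5 bases of the annotated start the shares were 47.4% of the members and 21.2% of all genes with a window. The E-box CACGTG, the letters Myc binds best, occurred on either strand in the window from 250 bases before to 50 after the start of 6 members, or 10.5%, against 8.09% of all genes with a window. An annotated start can lie some bases from the true one, and a match or its absence describes these letters only.

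The 77 genes together took 5.39% to 22.6% of the TPM of a library, with a median of 11.4% over the 37. In set 1 the share was 6.63, 7.33, 7.52 and 7.38% in the 4 control BM libraries, 8.34 to 11.4% in the 6 DKO yBM libraries, 13.5, 8.29 and 10.5% in DKO BMT and 9.88, 8.85 and 10.1% in DKO tumor. Every DKO library of set 1 thus lay above every control library. In set 2 the 3 control libraries were at 5.39, 9.79 and 10.9%, and the 18 knockout libraries ran from 11.3% to 22.6%, again with no overlap. The mean of the set 2 controls was 8.71 ± 2.93% (SD, n = 3). SKO yBM averaged 12.3 ± 0.235% (SD, n = 3) and DKO yBM 17.4 ± 3.52% (SD, n = 3), with every DKO yBM library above every SKO yBM library. For BMT the means were 16.1 ± 2.31% (SD, n = 3) in SKO and 16.1 ± 5.79% (SD, n = 3) in DKO, and for tumor 14.9 ± 3.71% (SD, n = 3) and 15.1 ± 1.42% (SD, n = 3), with overlap between the genotypes in both. The lowest share of all, in control BM 1 of set 2, came with the highest mitochondrial share. The summed level of the 46 large-subunit genes was 1.4 to 1.79 times that of the 31 small-subunit genes, a narrower range than that of the summed level itself.

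**Figure D1:**
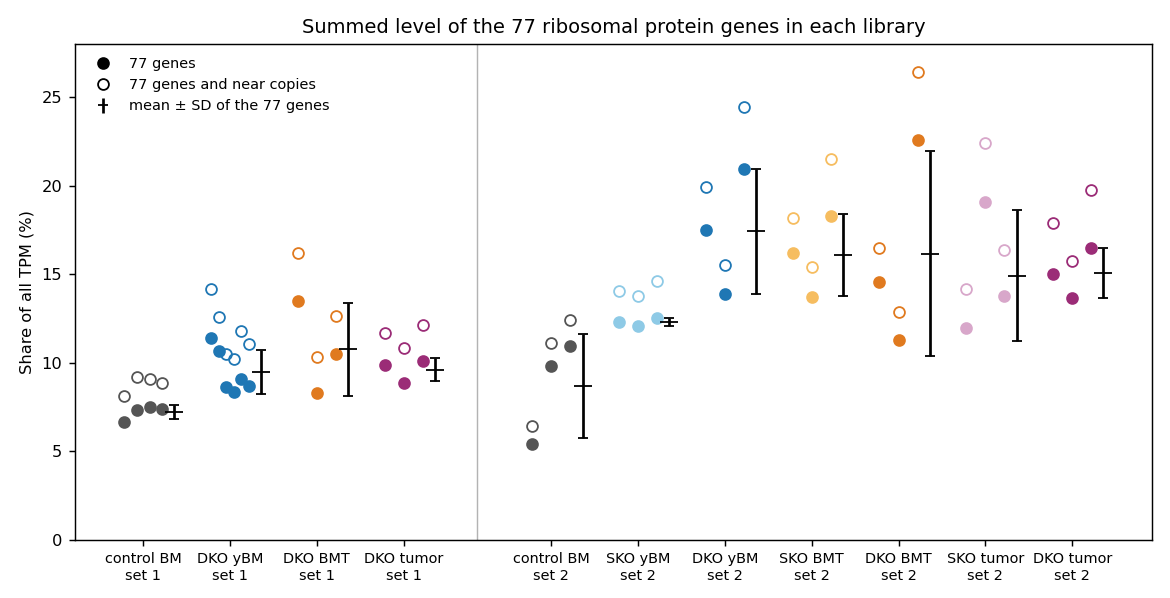
Share of all TPM, in percent, taken by the 77 cytosolic ribosomal protein genes in each of the 37 libraries, by group and set, with a filled point for the 77 genes, an open point for the 77 with their near copies and a bar for the mean ± SD of the filled points. The 4 control libraries of set 1 lie between 6.63% and 7.52% and the 3 of set 2 between 5.39% and 10.9%, in each set below all knockout libraries, and with the copies added the set 2 controls reach 12.4% and the lowest knockout library 12.9%.

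Since TPM is per length, the genes can be ranked. The highest mean levels over the 37 libraries were those of Rpl41 (4825 TPM), which encodes a peptide of a few residues, Rplp1 (3719 TPM), a protein of the acidic stalk, which recruits translation factors, and Rpl23a (3363 TPM), which lies at the exit of the nascent peptide. The lowest were those of Rpl12 (234 TPM, range 29.4 to 807), a stalk-base protein, Rps7 (334 TPM) and Rps3 (425 TPM), which sits at the mRNA entry of the small subunit. For 61 of the 77 the mean was at least 1000 TPM. Of the lowest 3, Rpl12 and Rps7 have a near copy with a higher level than their own row, while Rps3 has no near copy by this measure. The order of the genes was similar between libraries of the same set, with a median Spearman rank correlation of 0.86 over pairs of libraries, and 0.69 between sets, as a description over 77 genes that share each library.

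Individual genes kept unequal pace with the rest. Relative to the median member of the same library, the SD of the log2 level over the 37 libraries had a median of 0.32 over the 77 genes and exceeded 0.5 for 13, while the SD of the log2 level itself had a median of 0.57. The widest were Rps2 (1.17), of the mRNA entry channel, Rplp2 (1.02), a stalk protein, Rps18 (0.92), of the head of the small subunit, Rpl12 (0.90) and Rps15a (0.66), also of the small subunit. The steadiest was Rpl7a (0.13), named after its value was seen.

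Rplp2 stood apart by set. Its level was 153 to 387 TPM in the 16 libraries of set 1 and 939 to 2328 TPM in the 21 of set 2, with no overlap, and no near copy of it was found. Within set 1 the 4 control libraries were at 223, 241, 255 and 239 TPM and the 6 DKO yBM libraries at 153 to 330.1 with a median of 181. Rplp2 was not called in any comparison with control BM, where its log2 fold changes ran from -0.24 to 0.47. The part of library preparation or quantification in the gap between the sets was not tested.

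The wide ranges of Rps2, Rps18 and Rpl12 narrowed when the near copies were added. The row of Rps2 ran from 156 to 8152 TPM, 52.3-fold, and with its near copies added 9.52-fold. For Rps18 the range fell from 19.6-fold to 8.47-fold, and for Rpl12 from 27.4-fold to 5.81-fold. Adding the copies made the SD of the log2 level smaller for 38 members and larger for 19. In all, near copies held 10.7% to 23.2% of the TPM of members and copies together in a library, and over 20% of the summed TPM of 20 members. The largest shares over the 37 libraries were 90.4% for Rpl12, 79.8% for Rps7 and 67.4% for Rpl5, whose copy Gm15500 matched it in 894 of 894 coding bases.

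The tumors of set 2 show this most plainly. Rps2 was at 323, 1251 and 299.98 TPM in its own row and 3110.3, 1087 and 3546 TPM in its near copies in SKO tumor 1, 2 and 3, and at 483, 2213 and 339 TPM in its own row and 4795, 2205 and 4382 TPM in its near copies in DKO tumor 1, 2 and 3. Rps18 was at 255, 2412 and 320.4 TPM in its own row and 2162, 1677 and 2517 TPM in its near copies in the SKO tumors and at 424, 1689 and 441 TPM in its own row and 3167, 1286 and 2581 TPM in its near copies in the DKO tumors. In libraries 1 and 3 of both tumor groups the row of the gene was low and that of its copies high, while libraries 2 held more in the gene's own row. For the row alone, the log2 fold change of Rps18 against control BM was -1.05 ± 0.70 (SE, adjusted p = 0.394, limma) in SKO tumor, and with the copies added it was 1.32 ± 0.39 (SE, adjusted p = 0.0333, limma). For DKO tumor it was -0.82 ± 0.70 (SE, adjusted p = 0.47, limma) alone and 1.39 ± 0.39 (SE, adjusted p = 0.02, limma) with the copies, so in both tumor groups the direction turned. Rps2 in DKO tumor went from 0.44 ± 0.74 (SE, adjusted p = 0.743, limma) alone to 1.69 ± 0.40 (SE, adjusted p = 0.00614, limma) with the copies. Which of the near-identical transcripts gave the reads cannot be told from TPM, and the rows of Rps2, Rps18, Rpl12, Rps7, Rpl5, Rps6, Rpl3 and Rpl26, among others, are uncertain below for this reason. Of Rps6, 35.5% of the summed TPM lay in copies, and of Rpl3 and Rpl26 3.41% and 1.89%, but up to 68.4% and 68.4% in single libraries.

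**Figure D2:**
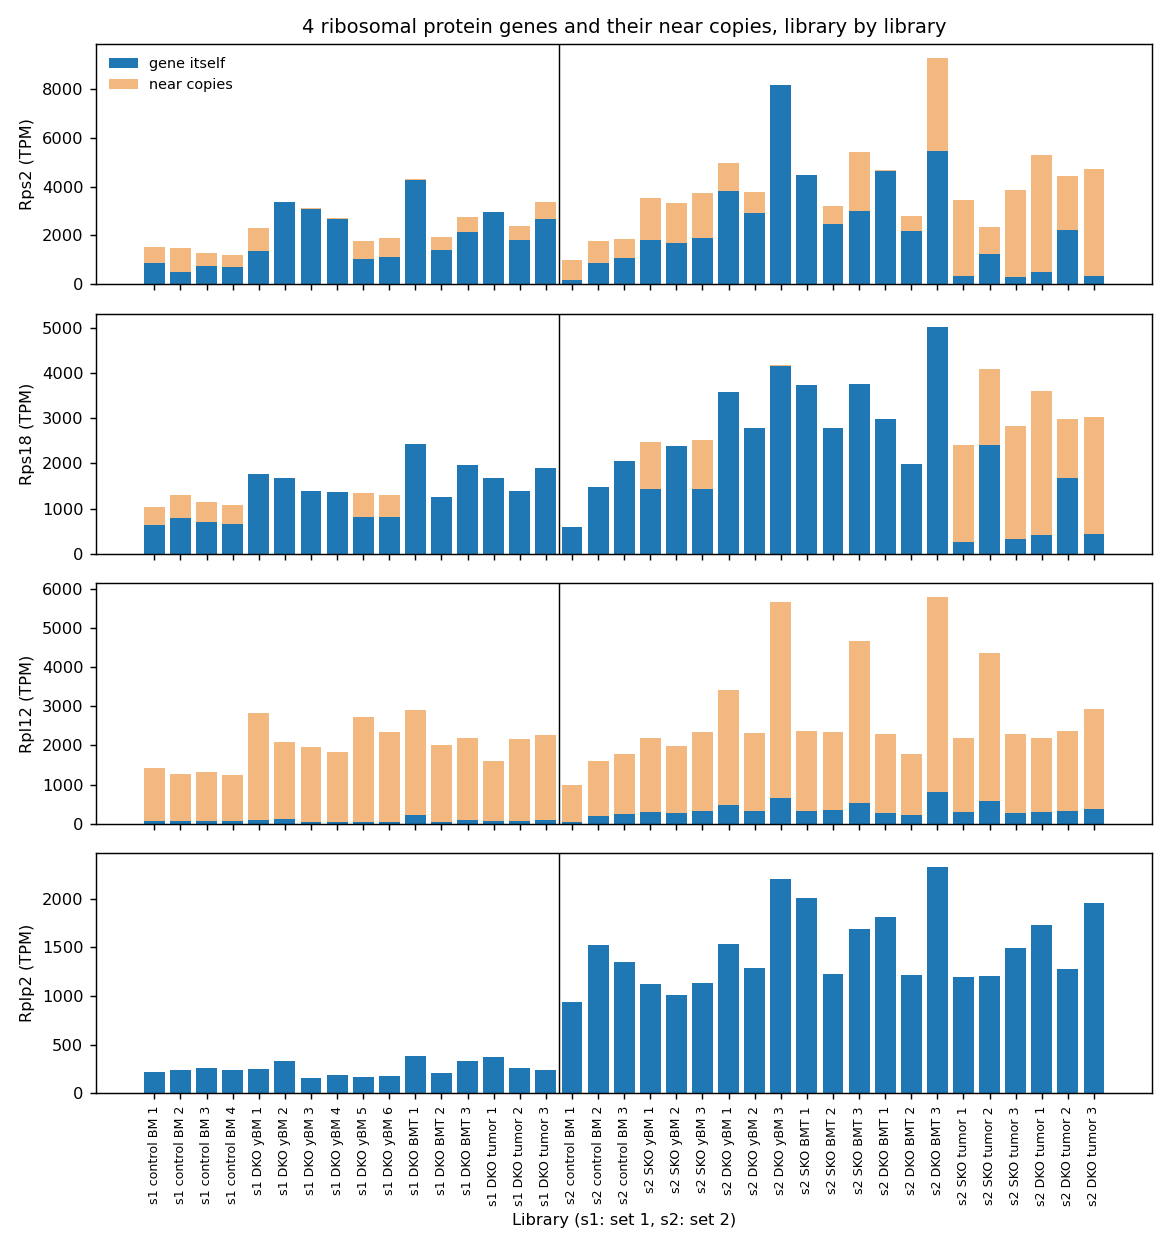
Stacked bars of TPM in each of the 37 libraries for Rps2, Rps18, Rpl12 and Rplp2, the lower part for the gene's own row and the upper part for its near copies. For Rps2 the 52.3-fold range of the lower part becomes 9.52-fold for the whole bar, and Rplp2, which has no near copy, keeps its gap between the sets.

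Marrow cultures of young DKO mice were compared with control marrow to see the state of these genes before tumors appear. In set 1, 13 of the 77 genes were higher in DKO yBM and 0 lower, where 7.81% of all 14404 genes tested were called and 1.67% were called higher. The median log2 fold change of the 77 was 0.36, against -0.22 over all genes, and 68 of the 77 lay above 0. Near copies included, 1623 other nuclear genes had a mean in set 1 of at least that of the lowest member. Of these, 7.15% were called and 5.05% called higher, with a median of 0.08. The 13 were Rpl6, Rpl14, Rpl21, Rpl22, Rpl23a, Rpl24, Rpl26, Rpl30, Rpl32, Rpl35 and Rpl38 of the large subunit and Rps2 and Rpsa of the small, and the median of the subunits was 0.41 and 0.27 respectively. The largest rises were those of Rps2, Rpl26 and Rpsa. Rpl26, a protein at the exit tunnel that also binds Trp53 mRNA, was at 1354, 701, 1498 and 1457 TPM in control BM and at 1885 to 3015 with a median of 2198 TPM in DKO yBM, a log2 fold change of 0.92 ± 0.22 (SE, adjusted p = 0.0252, limma). The lowest of these, control BM 2, held 1516 TPM more in the near copies of Rpl26, where the other 3 controls held 0, and with the copies added the value was 0.51 ± 0.18 (SE, adjusted p = 0.0896, limma) and the groups overlapped. Rpl21 and Rpl30 also lost their calls with the copies, at 0.35 ± 0.18 (SE, adjusted p = 0.232, limma) and 0.53 ± 0.16 (SE, adjusted p = 0.0554, limma). Rpsa, which is both a small-subunit protein and the laminin receptor, was at 914, 1128, 863 and 741 TPM in control BM and at 1197 to 2057 with a median of 1606 TPM in DKO yBM, with 0.82 ± 0.22 (SE, adjusted p = 0.0402, limma). Every yBM library lay above every control library for Rpsa. Rps2 was at 879, 484, 756 and 688 TPM against 1022 to 3377 with a median of 2030.4 TPM, with 1.45 ± 0.39 (SE, adjusted p = 0.0373, limma), and with 0.84 ± 0.24 (SE, adjusted p = 0.0448, limma) once the copies were added.

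Rpl22 and Rpl38 are ribosomal proteins with roles beyond bulk translation, Rpl22 in lymphocyte development and Rpl38 in the translation of Hox mRNAs. Rpl22 was at 704, 589, 713 and 773 TPM in control BM and at 960.3 to 1541 with a median of 1250.3 TPM in DKO yBM (log2 fold change 0.81 ± 0.19, SE, adjusted p = 0.0243, limma), and it has no near copy. Rpl38 was at 802, 846, 831 and 732 TPM against 1183 to 1495 with a median of 1246 TPM (log2 fold change 0.66 ± 0.15, SE, adjusted p = 0.023, limma). For both genes the groups did not overlap. The partners of the 5S RNP did not pass the test, with a log2 fold change of 0.35 for Rpl5 and 0.54 for Rpl11, although Rpl11 with its copies was at 0.67 ± 0.19 (SE, adjusted p = 0.0467, limma). The 3 libraries of 1.5 months and the 3 of 4 months each gave 0 called members alone, and leaving out 1 library gave 0 to 10. It gave 0 without DKO yBM 1 or control BM 4, 1 without DKO yBM 5, 2 without control BM 2, 4 without DKO yBM 6 or control BM 1, 5 without DKO yBM 3 and 6 without control BM 3.

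In marrow of tumor-bearing DKO mice (set 1), 5 of the 77 genes were higher and 0 lower against the same 4 control libraries, where 2.35% of all genes were called and 0.958% were called higher. They were Rps18, Rpsa, Rplp0, Rpl14 and Rps6. The median log2 fold change of the 77 was 0.54 against -0.06 over all genes, and 75 of the 77 lay above 0. Of the 1623 other genes of at least the lowest member's mean, 4.5% were called and 2.4% called higher, with a median of 0.12. Rplp0, the core of the stalk on which the P1 and P2 proteins assemble, was at 1529.5, 1904, 1517 and 1583 TPM in control BM and at 4476, 2246 and 3757 TPM in DKO BMT, a log2 fold change of 1.04 ± 0.26 (SE, adjusted p = 0.0499, limma). Rps6, the substrate of S6 kinase that is phosphorylated when mTOR is active, was at 547, 579, 624 and 573 TPM against 1432, 777 and 1027 TPM, with 0.85 ± 0.21 (SE, adjusted p = 0.0459, limma). For Rps6 every BMT library lay above every control library. Rpsa was at 2395, 1322 and 2147 TPM in DKO BMT (log2 fold change 1.07 ± 0.26, SE, adjusted p = 0.0465, limma), and Rpl14, a protein of the solvent side of the large subunit, had 0.85 ± 0.21 (SE, adjusted p = 0.0448, limma). For Rps18 the log2 fold change was 1.37 ± 0.30 (SE, adjusted p = 0.0338, limma) alone and 0.67 ± 0.22 (SE, adjusted p = 0.103, limma) with its copies. The count of 5 fell to 0 without DKO BMT 1, DKO BMT 3, control BM 1 or control BM 4 and to 1 without control BM 2 or 3.

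In the DKO tumors of set 1, 3 of the 77 genes were higher and 0 lower, where 3.39% of all genes were called and 1.19% were called higher, so the share of members called in either direction, 3.9%, lay near the background. They were Rps2 (log2 fold change 1.82 ± 0.46, SE, adjusted p = 0.0458, limma), Rps18 (log2 fold change 1.22 ± 0.30, SE, adjusted p = 0.041, limma) and Rpsa (log2 fold change 1.01 ± 0.26, SE, adjusted p = 0.0485, limma). Rpsa was at 1568, 1607 and 2369 TPM in the 3 tumors, all above the 4 control libraries given above. Of the 3, Rps2 and Rps18 have over 20% of their summed TPM in near copies, and with the copies added 2 members were called, Rpsa and Rplp0, while Rps2 was at 1.07 ± 0.28 (SE, adjusted p = 0.0504, limma) and Rps18 at 0.52 ± 0.22 (SE, adjusted p = 0.173, limma). The median log2 fold change of the 77 was 0.37 against -0.09 over all genes. Of the 1623 other genes of at least the lowest member's mean, 5.24% were called and 2.46% called higher, with a median of 0.07. The share of members called in either direction was below that of these genes. In DKO yBM and DKO BMT the 13 and 5 calls became 15 and 7 with the copies added. The count of 3 in the tumors fell to 0 without DKO tumor 3, control BM 3 or control BM 4 and to 1 without control BM 1. The leukocyte markers, 22 in all, gave 0 calls in yBM and BMT and 13 calls, all lower, in the tumors. With the leukocyte level as a covariate the calls in yBM, BMT and tumor were 15, 8 and 0, with a median of 0.61 in the tumors.

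**Figure D3:**
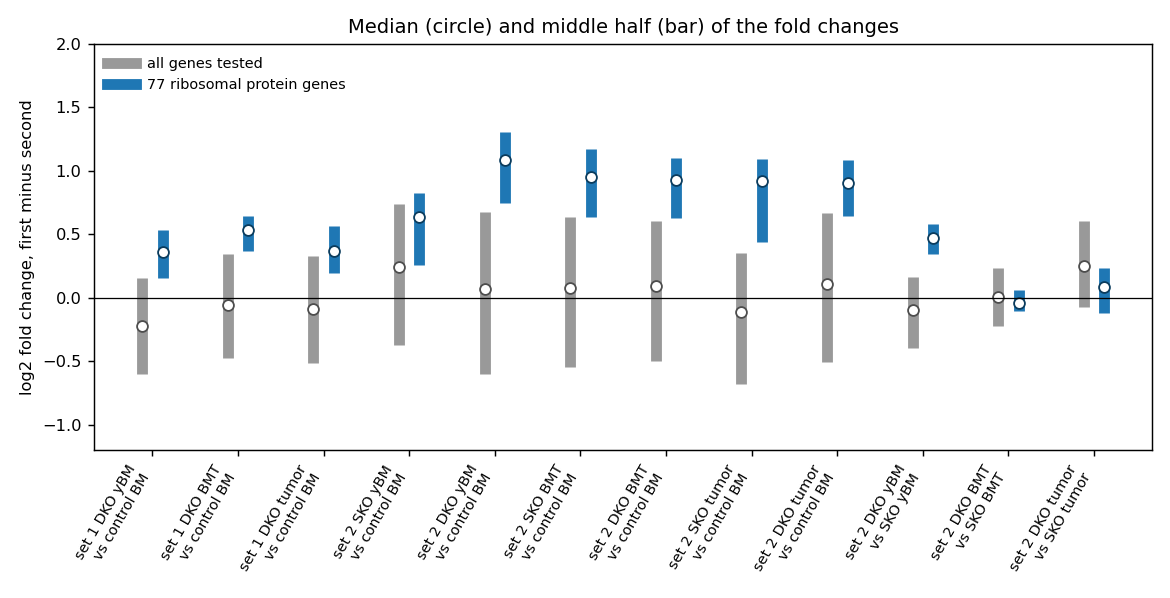
Median (circle) and middle 50% (bar) of the log2 fold changes of the 77 genes, in blue, and of all genes tested, in grey, in each of the 12 comparisons. Against control BM the median of the 77 lies between 0.36 and 1.09, above the median of all genes in each of the 9 comparisons. In DKO against SKO it lies at 0.47, -0.04 and 0.09 for yBM, BMT and tumor, where that of all genes is -0.10, 0.003 and 0.25.

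In set 2 all 6 knockout groups were set against the same 3 control libraries, so these comparisons share their controls. Members were called higher in every group and lower in none. In SKO yBM 7 of the 77 were higher (13.5% of all 14458 genes called and 5.78% called higher), so the 9.09% of members called lay below the share of all genes called in either direction and above that called higher. In DKO yBM 45 were higher (19.5% and 9.34%). In SKO BMT 21 were higher (13.4% and 5%), in DKO BMT 15 (12% and 4.22%), in SKO tumor 20 (11.6% and 2.01%) and in DKO tumor 26 (17.2% and 7.71%). The median log2 fold changes of the 77 were 0.63, 1.09, 0.95, 0.93, 0.92 and 0.91 in SKO and DKO yBM, SKO and DKO BMT, and SKO and DKO tumor, against 0.24, 0.07, 0.07, 0.09, -0.11 and 0.11 over all genes. Of the 295 other nuclear genes, near copies included, with a mean in set 2 of at least that of the lowest member, 15.6%, 25.8%, 17.6%, 14.6%, 13.6% and 21% were called and 11.2%, 21%, 15.3%, 10.8%, 7.8% and 15.3% called higher in the same order, with medians of 0.49, 0.48, 0.33, 0.31, 0.25 and 0.46, so in SKO yBM the share of members called higher was below that of these genes. With the near copies added, 8, 47, 25, 16, 22 and 30 members were called, of which 5, 42, 19, 13, 16 and 23 were also called alone. The median of the large and of the small subunit was 1.10 and 0.94 in DKO yBM and 0.92 and 0.84 in DKO tumor.

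These counts move with the controls and with leukocyte content. Without control BM 1 the 6 counts were 1, 13, 5, 3, 1 and 5 in the order above. Without a single knockout library they fell as low as 4 (without SKO tumor 2), 7 (DKO tumor 3), 8 (SKO BMT 3), 3 (DKO BMT 3), 14 (DKO yBM 3) and 1 (SKO yBM 2 or 3), while without DKO BMT 2 that group rose to 34, and without control BM 3 SKO yBM rose to 13 and DKO BMT to 24. Without control BM 2, SKO yBM and SKO tumor gave 4 and 8. The counts also fell without DKO tumor 1 or 2 (to 9 or 11), SKO BMT 1 (10), DKO BMT 1 (6), DKO yBM 1 (16) and SKO yBM 1 (2). With the leukocyte marker level as a covariate no member was called in any of the 6 groups, and the median became -0.31 in SKO yBM and -0.052 in SKO tumor, where Rpsa was at -0.10. Each of the 22 leukocyte markers fell in 5 of the 6 comparisons and 20 fell in SKO BMT. Leukocyte level and genotype separate the same libraries, so their parts in the values of set 2 cannot be told apart. In set 1 the leukocyte level of yBM and BMT overlapped that of the controls, with DKO yBM 3 below them at 4.09. There the share of TPM in the 77 genes was above that of every control library in every yBM and BMT library. The same held for the 3 tumors, at leukocyte levels of 5.90, 0.48 and 0.67. The cause of this difference in set 1, other differences in the kinds of cells included, was not tested.

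**Figure D4:**
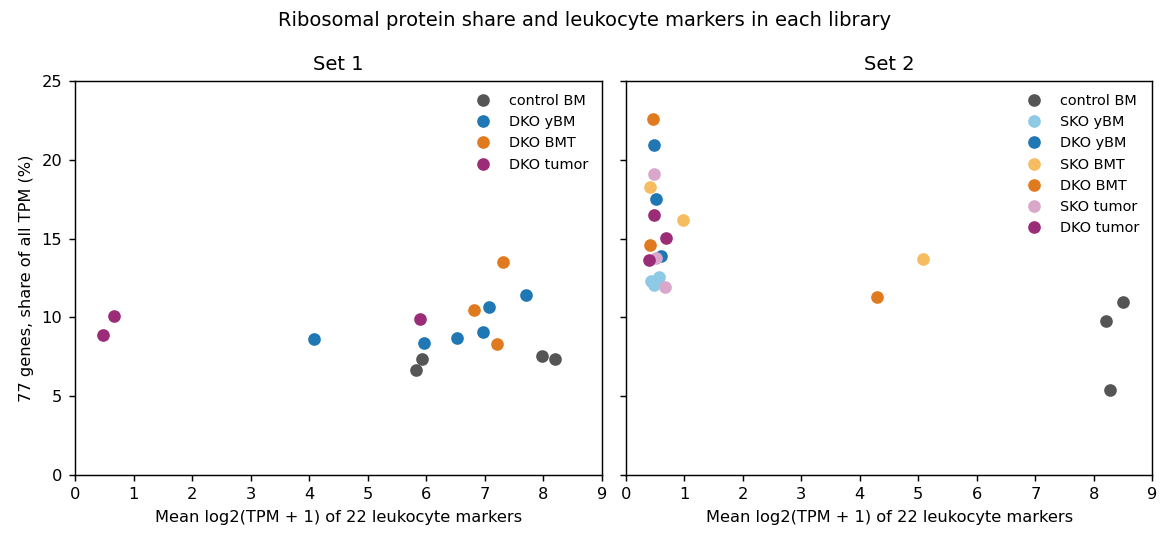
Share of TPM in the 77 genes, in percent, against the mean log2(TPM + 1) of 22 leukocyte markers, 1 point for each of the 37 libraries by group and set. In set 2 the 3 controls sit apart at 8.21 to 8.49 on the leukocyte axis, whereas in set 1 the 4 controls (5.82 to 8.20) and 8 of the 9 yBM and BMT libraries share the same range and differ in height, with DKO yBM 3 further left at 4.09.

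Among the single genes, Rpsa was called in all 9 comparisons with control BM, and was the only member to be so. In set 2 it was at 540.3, 1011 and 900.4 TPM in the 3 controls and 1246 to 3154 TPM in the 18 knockout libraries. The lowest knockout library lay above the highest control. Its log2 fold changes were 1.42, 1.54, 1.72, 1.42, 1.12 and 1.53 in SKO and DKO yBM, SKO and DKO BMT, and SKO and DKO tumor, with 1.72 ± 0.31 (SE, adjusted p = 8.99e-04, limma) at the smallest p and 1.12 ± 0.31 (SE, adjusted p = 0.024, limma) at the largest. With its copies added Rpsa was again called in all 9. Rpsa, Rps6 and Rpl3 were among the members called in all 6 comparisons of set 2 on their own rows. Rps6 was at 425, 787 and 1034 TPM in the 3 controls and 1242 to 2673 TPM in the 18 knockout libraries, with log2 fold changes of 1.07, 1.41, 1.40, 1.32, 1.10 and 1.23. Its smallest was 1.07 ± 0.31 (SE, adjusted p = 0.0298, limma). The near copies of Rps6 held 603, 572 and 113 TPM in these controls, and with them added the log2 fold changes were 0.66, 0.94, 0.98, 0.89, 0.78 and 0.97, no longer called in SKO yBM (adjusted p = 0.131, limma) and SKO tumor (adjusted p = 0.0891, limma). Rpl3, which lines the peptidyl transferase centre, was at 141, 519 and 663 TPM in the 3 controls and 954 to 1892 TPM in the 18 knockout libraries, with 1.43, 1.80, 1.89, 1.82, 1.50 and 1.67 in the same order. In DKO BMT its log2 fold change was 1.82 ± 0.41 (SE, adjusted p = 0.00618, limma). Its near copies, however, held 262, 279 and 294 TPM in the 3 controls and at most 0.234 TPM in the knockout libraries. With them added the controls were at 404, 799 and 958 TPM, the highest of them above the lowest knockout library at 955 TPM, and the log2 fold changes were 0.54, 0.91, 1.01, 0.94, 0.61 and 0.79, called in DKO yBM and SKO BMT alone.

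Of the 3 stalk proteins, Rplp0 was called most often. It was at 709.8, 1863 and 2114 TPM in the 3 controls and 1666 to 7253 TPM in the 18 knockout libraries and was called in 5 of the 6 comparisons, with log2 fold changes of 1.46, 1.77, 1.88, 1.71, 1.01 and 1.53 in SKO and DKO yBM, SKO and DKO BMT, and SKO and DKO tumor. The 1 it missed was SKO tumor, at 1.01 ± 0.41 (SE, adjusted p = 0.136, limma). Rplp1 was at 1227, 3583 and 4144 TPM in the 3 controls and 3371 to 6697 TPM in the 18 knockout libraries and was called in 2 of the 6, SKO BMT (log2 fold change 1.13 ± 0.36, SE, adjusted p = 0.0458, limma) and DKO tumor (log2 fold change 1.14 ± 0.36, SE, adjusted p = 0.0369, limma). Rplp2 was called in none, with -0.19, 0.39, 0.37, 0.47, 0.05 and 0.39. Rpl12 at the base of the stalk was called in DKO yBM alone, at 2.05 ± 0.60 (SE, adjusted p = 0.0222, limma) for its own row and 1.33 ± 0.43 (SE, adjusted p = 0.04, limma) with its copies. Differences between these genes were not tested.

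The 5S RNP proteins Rpl5 and Rpl11 were called in DKO yBM alone on their own rows. Rpl11 was at 1036, 1710.2 and 1829 TPM in control BM and at 3373, 2437 and 3871 TPM in DKO yBM, a log2 fold change of 1.10 ± 0.31 (SE, adjusted p = 0.0182, limma), and over the other 5 groups its log2 fold change ran from 0.51 to 0.95. With its copies Rpl11 was also called in SKO tumor, at 1.00 ± 0.32 (SE, adjusted p = 0.0491, limma). Rpl5 was at 179, 394 and 364 TPM against 725, 564 and 759.7 TPM, with 1.20 ± 0.40 (SE, adjusted p = 0.0435, limma). Its copies held most of its summed TPM, and with them added the value was 1.01 ± 0.39 (SE, adjusted p = 0.0798, limma). Other large-subunit proteins with known roles of their own were Rpl10, which is placed last in the maturing 60S subunit, Rpl13, Rpl22, Rpl26 and Rpl38. Rpl10 was called in 1 of the 6 comparisons, Rpl13 in 5, Rpl22 in 2, Rpl26 in 0 and Rpl38 in 3. Rpl8, another protein near the peptidyl transferase centre, was among the 3 largest rises in 3 of the 6 comparisons, and it has no near copy. It was at 310.0, 729 and 875 TPM in the 3 controls and 708 to 3236 TPM in the 18 knockout libraries, with 1.44, 2.04, 1.86, 1.70, 1.05 and 1.88 as log2 fold changes. Rpl13 was at 254, 892 and 1186 TPM in the 3 controls and 1279 to 3012 TPM in the 18 knockout libraries, with 1.32, 1.81, 1.67, 1.57, 1.17 and 1.37.

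On the small subunit, Rps2 had the largest rise of all members in DKO yBM (log2 fold change 3.10 ± 0.74, SE, adjusted p = 0.00714, limma), SKO BMT (log2 fold change 2.61 ± 0.74, SE, adjusted p = 0.0265, limma) and DKO BMT (log2 fold change 2.85 ± 0.74, SE, adjusted p = 0.0164, limma). With the copies added these became 1.85, 1.52 and 1.74. Rps4x, encoded on the X chromosome, was called in 4 of the 6 comparisons, and Rps27a, made as a fusion with ubiquitin, in 3 on its own row and 2 with its copies. Rps27 was called in 2, and Rps15a in 2. Rps20, a protein of the head, was at 282, 752 and 1317 TPM in control BM and at 1301, 2207 and 1782 TPM in SKO tumor, with 1.40 ± 0.42 (SE, adjusted p = 0.0351, limma). Rps19, the protein most often mutated in Diamond-Blackfan anemia, was called in none of the 9 comparisons of either set, with log2 fold changes from -0.43 to 0.64. It was at 291, 1172 and 1296 TPM in the set 2 controls and at 650.2, 709 and 759.7 TPM in SKO yBM, where the groups overlapped. Rps7 and Rps3 were also called in none of the 9.

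**Figure D5:**
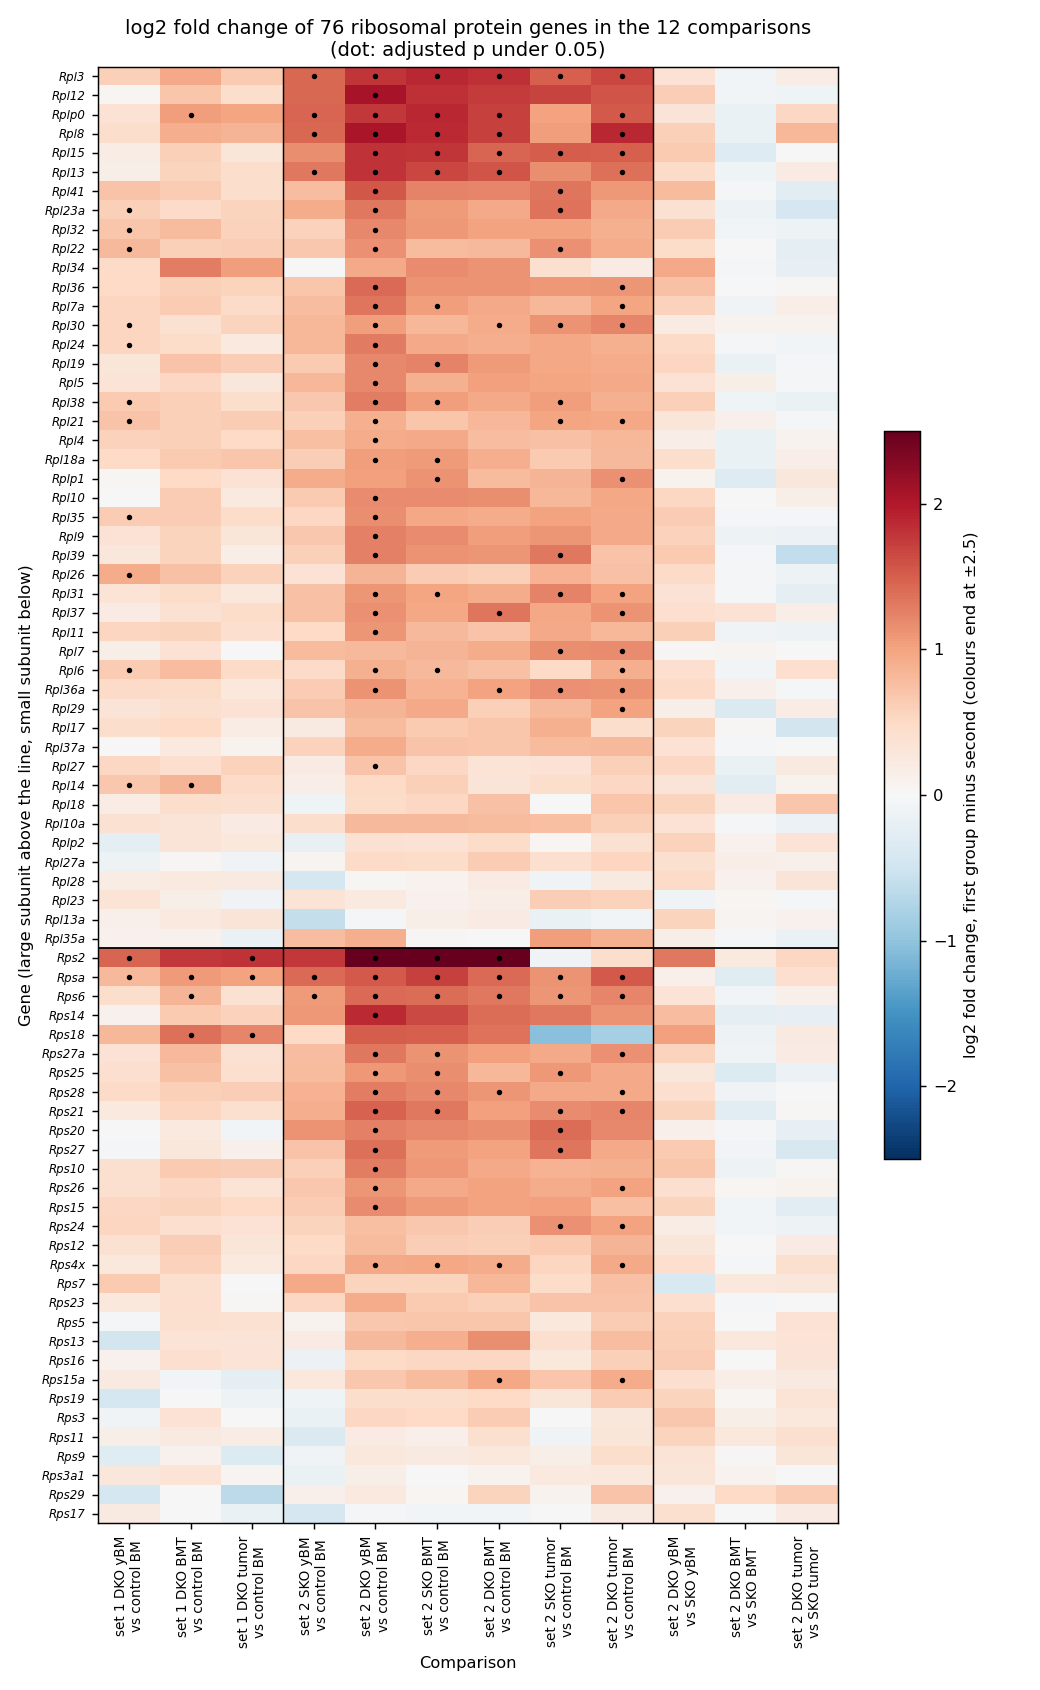
Log2 fold change, on the log2(TPM + 1) scale, of 76 of the 77 genes (rows, large subunit above small) in the 12 comparisons (columns), as a color from blue (lower) through white to red (higher), with a dot where the adjusted p from limma was under 0.05. Rpsa has a dot in all 9 comparisons with control BM, Rps19 and Rplp2 in none, and the 3 columns of DKO against SKO hold no dot.

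Over both sets, 53 of the 77 genes were called in at least 1 of the 9 comparisons with control BM and 24 in none, and 54 had a log2 fold change above 0 in all 9. Of the 16 called in set 1 and the 50 called in set 2, 13 were called in both, which is 81.2% of the first and 26% of the second. The controls of the sets are separate libraries. For the same DKO group, 66 of the 77 genes lay above 0 in both sets in yBM, 74 in BMT and 64 in tumor, and 11, 3 and 1 were called higher in both. Over all genes tested, 34.3%, 45.9% and 44.3% lay above 0 in yBM, BMT and tumor of set 1. In set 2 these shares were 53%, 54.5% and 54.9%. For counts over more than 1 comparison no share over all genes was taken. The Spearman correlation of the fold changes between the sets over the 77 genes was 0.36, 0.62 and 0.31, as a description of genes that share each library. Over the 13585 genes tested in both sets it was 0.45, 0.39 and 0.69, so higher than over the 77 in yBM and tumor.

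DKO was compared with SKO of the same source to see what the loss of Wwox adds to that of p53. By limma, 0 of the 77 genes were called in yBM, where 0.0207% of all genes were called, 0 in BMT and 0 in tumor, where 0% of all genes were called in each. At an unadjusted p under 0.05 there was 1 member in yBM (Rpl27), 0 in BMT and 1 in tumor (Rpl18), the pair named because the counts are so small. In yBM the values leaned one way, with 75 of the 77 genes above 0, a median log2 fold change of 0.47 against -0.10 over all genes, and 54 genes whose 3 DKO libraries all lay above the 3 SKO libraries, against 6.72% of all genes. The median SE of a member was 0.34, and these counts describe genes that share each library and are not independent. Rpl11 was at 2116, 1983 and 2219 TPM in SKO yBM and at 3373, 2437 and 3871 TPM in DKO yBM, a log2 fold change of 0.59 ± 0.31 (SE, adjusted p = 1, limma). Rps19 was at 650.2, 709 and 759.7 TPM against 1052, 865 and 1238 TPM, with 0.56 ± 0.42 (SE, adjusted p = 1, limma). For BMT the median of the 77 was -0.04 against 0.003 over all genes, with 26 of 77 above 0 against 50.4% of all genes. For tumor the median was 0.09 against 0.25, with 47 of 77 above 0 against 68.6% of all genes. The tumor median of the 77 thus lay below that of all genes. Of 22 leukocyte markers, 0 were called in any of these 3 comparisons. The DKO against SKO difference was also compared between sources by limma. It differed for 0 members between yBM and BMT and for 0 between yBM and tumor. The median differences were 0.50 and 0.34, with a median SE of 0.48. Wwox mRNA was at 87.1 to 219% of the control mean in SKO yBM and 0.803 to 21.7% in DKO yBM. In the libraries labelled DKO tumor it was at 119 to 146%, and SKO BMT 2 and 3 were as low as DKO BMT, so the labels of the tumor and BMT contrasts do not separate the libraries by Wwox mRNA.

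Genes that work beside the 77 were taken from lists written by function. Of 17 translation factors and other genes with TOP mRNAs, 4, 2 and 4 were higher in DKO yBM, BMT and tumor of set 1, and 6, 7, 6, 6, 4 and 6 in SKO and DKO yBM, SKO and DKO BMT, and SKO and DKO tumor of set 2, with 0 lower in any. Eef1d, a subunit of the exchange factor of elongation factor 1, was called in all 9, with 1.60 ± 0.25 (SE, adjusted p = 1.32e-04, limma) in DKO yBM of set 2 and 0.78 ± 0.20 (SE, adjusted p = 0.0306, limma) in that of set 1. Hnrnpa1, an RNA-binding protein with a TOP mRNA, had 1.62 ± 0.30 (SE, adjusted p = 8.89e-04, limma) in DKO yBM of set 2, and Eef1g, another subunit of that factor, 1.69 ± 0.30 (SE, adjusted p = 6.83e-04, limma). Of 12 other ribosomal proteins and paralogs, 9 were tested, and 0 were called in set 1. Rack1, the scaffold protein of the small subunit, was higher in set 2 by log2 fold changes of 1.43 in SKO yBM, 1.90 in DKO yBM, 1.97 in SKO BMT, 1.76 in DKO BMT and 1.53 in DKO tumor. Rpl39l, a paralog of Rpl39 best known from testis, was higher by 3.26 in SKO yBM, 4.05 in DKO yBM, 3.75 in SKO BMT and 3.61 in SKO tumor. It was at 8.3, 62.1 and 18.5 TPM in the 3 controls and at 456, 165 and 679 TPM in DKO yBM, where every library lay above the controls. Rpl7l1 was higher in DKO yBM (1.04) and DKO tumor (0.90), and Rpl36al in DKO tumor (1.04).

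Of 8 dedicated chaperones, which escort single ribosomal proteins after their synthesis, 1, 1 and 0 were higher in DKO yBM, BMT and tumor of set 1, and 1, 4, 0, 1, 0 and 3 in the 6 groups of set 2, with 0 lower. Pdcd2, the chaperone of Rps2, was called in set 1 yBM (log2 fold change 0.60 ± 0.16, SE, adjusted p = 0.0373, limma) and BMT (log2 fold change 0.79 ± 0.19, SE, adjusted p = 0.0436, limma), and Heatr3, a carrier of Rpl5, in set 2 DKO yBM (log2 fold change 1.72 ± 0.46, SE, adjusted p = 0.0136, limma). Grwd1, which carries Rpl3, was higher in DKO yBM of set 2 (log2 fold change 1.88 ± 0.54, SE, adjusted p = 0.0208, limma). Of 10 regulators, Trp53 and Mdm2, its target and inhibitor, fell in all 6 comparisons of set 2 and in the set 1 tumors, and Trp53 also in set 1 yBM (-2.13). Eif4ebp1, the repressor of cap-dependent translation that mTOR inactivates, was higher in 5 of the 6 groups of set 2, by 2.16 to 2.51 on the log2 scale. Myc was at 12.2, 20.4 and 20.1 TPM in the set 2 controls, at 90.7, 51.8 and 82.2 TPM in DKO BMT and at 168, 113 and 45.9 TPM in DKO tumor, with log2 fold changes of 2.03 ± 0.62 (SE, adjusted p = 0.0416, limma) and 2.42 ± 0.62 (SE, adjusted p = 0.0122, limma). In the other 4 groups of set 2 Myc did not pass the test, with 1.70, 1.77, 1.75 and 0.48 in SKO and DKO yBM, SKO BMT and SKO tumor, and it was called in none of the 3 comparisons of set 1, where it ran from -0.14 to 1.00.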

How the data were processed

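Per the submitters' processing notes, the authors used Trim Galore 0.6.1 and FastQC on the reads, Salmon for quantification and DESeq2 for their own comparisons, and the values deposited are TPM per gene. The labels name the build mm39. Libraries were prepared with a stranded poly(A) mRNA kit. Gene names and types were taken from GENCODE M21 (GRCm38) for 48246 of 51123 gene IDs. TPM keeps no depth, and a read shared by near-identical copies is divided between them by estimation.

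All 37 columns were mapped, the 3 controls of set 2 to their group only, with numbers that are names. The filter on low values kept genes that reached 1 TPM in 3 or more libraries of a set (14404 in set 1, 14458 in set 2). On log2(TPM + 1), which understates changes of low genes, limma (3.58.1, under R 4.3.3) was fitted once per set over all its groups, with a trended prior. A gene was called where its Benjamini-Hochberg adjusted p was under 0.05, whatever its fold change. The script was tested on simulated data. No set test was run. No 2 libraries looked like duplicates, with a highest correlation of 0.976. Same-numbered libraries did not deviate together in general (r over 0.1 in 4 of 19 pairs of set 1 and 12 of 45 of set 2), except that the 3 pairs of SKO BMT and DKO BMT were all over 0.1, and a replicate block there changed no call.

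The members and gene lists were chosen with earlier results of these data known. The genes named were 16 members of known extra roles, the called members (where over 6, the 3 largest changes in each direction), the 3 highest and 3 lowest mean levels, the 5 of largest SD relative to the library's median member, all called paralogs, and of each other list the 3 called genes of smallest p. Rpl7a, Rpl27, Rpl18 and the other calls listed in set 1 are not covered by it and were picked with their values in view. The values of 1 member on its own are not reported here.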

Additional observations from a re-analysis of the deposited data

Results flagged for a closer look

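In groups of 4 to 10 libraries, a library was set apart where the gap between it and the nearest other, divided by the range of the group, exceeded Dixon's 95% critical value. Of 60 values tested (29 named members and the summed share, in 2 groups), 7 were set apart, and chance alone sets apart about 1 group in 20. Each is from set 1. In control BM 1, Rpl15 was low at 767 TPM, Rpl23a at 1615 TPM and Rps27 at 629 TPM. In control BM 2, Rpl3 was low at 296 TPM, and its near copies held 639.9 TPM there and at most 0.363 TPM in the other 3 controls, so with the copies it was at 936 TPM against 1057 to 1104 TPM. In the same library Rpl41 was high at 2511 TPM and Rplp0 at 1904 TPM. In DKO yBM 1, Rpl38 was high at 1495 TPM, where the other 5 libraries lay between 1183 and 1280 TPM.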

How the results depend on the processing

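Against control BM, the median log2 fold change of the 77 genes stayed above 0 in 170 of 172 alternatives, and the count of called members, all higher, held less well. Of 458 alternative counts and medians, 344 lay within 1.5 times the reported count or 1 SD of the reported median. They include all 57 counts of DKO against SKO, which were 0 as reported. The SD was that of the library medians within the groups compared, 0.40 to 0.52 for set 2 against control, so the limit is wide there. Another 112 moved further and 2 medians against control changed sign. A change of sign was not counted apart in DKO against SKO, where no member was called. There the tumor median of 0.09 became -0.33 with median-ratio scaling and -0.042 without mitochondrial genes. Of 2871 alternative values of called members 1567 stayed called, 1289 kept their direction without passing the test and 15 changed sign. No member was called in 30 of 172 alternatives against control, and in 0 of 57 for DKO against SKO was any called. A member was called lower in 2 of 172, under quantile normalization in SKO yBM (9 higher, 4 lower) and without SKO tumor replicate 2 (3 higher, 1 lower). The cause of these changes was not tested, and leaving out a library lowered some counts and raised others. TPM holds no depth, so no limit from depth can be given.

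Called members are given here in the order set 1 DKO yBM, BMT and tumor (reported 13, 5 and 3) and set 2 SKO and DKO yBM, SKO and DKO BMT, and SKO and DKO tumor (reported 7, 45, 21, 15, 20 and 26). With no filter on low values they were 4, 0 and 0, and 2, 28, 10, 9, 7 and 11. With median-ratio scaling they were 33, 10 and 6, and 1, 7, 6, 6, 6 and 4, with a median of 0.63 in set 1 DKO yBM and of -0.33 for DKO against SKO tumor. Quantile normalization gave 5 and 6 in set 1 yBM and tumor and 13 and 13 in set 2 SKO yBM and DKO tumor, with medians of 0.62 in DKO yBM and 0.23 for DKO against SKO yBM. Without mitochondrial genes set 1 BMT and tumor gave 10 and 6. Where each fit held the 2 groups compared and no others, set 1 BMT and tumor gave 0 and 0 and set 2 gave 3, 11, 0, 0, 0 and 5.

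With the leukocyte level as a covariate, set 1 BMT and tumor gave 8 and 0 (tumor median 0.61) and set 2 gave 0 in all 6, with medians of -0.31, 0.12, 0.22, 0.15, -0.052 and 0.071. Called members that turned sign there were Rps26 (-0.15), Rpl22 (-0.071), Rpl6 (-0.052), Rpl37 (-0.28), Rps10 (-0.11), Rpl32 (-0.10), Rps15 (-0.088), Rpl19 (-0.016) and Rpl9 (-0.0064) in DKO yBM, Rpl22 (-0.052) and Rpsa (-0.10) in SKO tumor, and Rps26 (-0.25), Rpl6 (-0.030), Rpl37 (-0.30) and Rps28 (-0.31) in DKO tumor.

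Leaving out libraries with Wwox mRNA contrary to the label, set 1 DKO BMT and tumor gave 0 and 1 called members. In set 2, SKO and DKO yBM gave 1 and 28, DKO BMT 8 and SKO tumor 8. DKO yBM of set 1 then rested on yBM 1 alone, its library of highest share, with a median of 0.69. SKO BMT of set 2 rested on SKO BMT 1 alone, and DKO tumor of set 2 has no library left. Leaving out those with Trp53 mRNA contrary to the label left DKO BMT 1 alone in set 1 BMT, its library of highest share, with a median of 0.85. The yBM libraries of 1.5 months alone and of 4 months alone gave 0 and 0. Chosen after seeing the data, leaving out control BM 1, SKO BMT 2 and DKO BMT 2 of set 2 together gave 1, 14 and 8 in SKO yBM, DKO yBM and SKO BMT and 1 and 9 in SKO and DKO tumor. Leaving out 1 library at a time gave 0 to 10, 0 to 6 and 0 to 3 in set 1 and 1 to 13, 13 to 44, 5 to 29, 3 to 34, 1 to 25 and 5 to 33 in set 2, the lowest of each in set 2 without control BM 1, and for set 1 without DKO yBM 1, DKO BMT 1 and DKO tumor 3. The medians then ran from 0.30 to 0.42, 0.32 to 0.69 and 0.32 to 0.45 in set 1 and, for DKO against SKO, from 0.32 to 0.62 in yBM, -0.34 to 0.18 in BMT and -0.07 to 0.22 in tumor.

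Replicate numbers do not mark a shared animal or batch in the labels. With the replicate number as a replicate block, set 1 gave 0, 0 and 0 called members, where 20, 43 and 10 of all genes were called, and DKO against SKO gave 0, 0 and 0 as without it. For SKO BMT and DKO BMT, whose same-numbered libraries deviated together, the block within these groups alone also gave 0.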
